A study of Homo sapiens with 4 samples.

Results

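The receptors and co-receptors of the neurotrophins and of the GDNF family, with the neurotrophin BDNF, were followed in SH-SY5Y cells, an established human neuroblastoma line, after knockdown of the histone demethylase LSD1. The members were NTRK2, NTRK3, NGFR, BDNF, RET, GFRA1, GFRA2 and GFRA3, and every probe set annotated with 1 of these symbols and no other was kept, which gave 28 probe sets for the 8 genes, out of 41091 probe sets for 19775 genes in the series. BDNF is a ligand and was described beside its receptor. The siControl group had been transfected with a control siRNA and the siLSD1 group with an siRNA directed against LSD1, and each consisted of 2 arrays from separate transfections per the series' design text. Both groups were the same cell line, so replicates show the spread between transfections and not between tumours or donors, and no siRNA sequence, time after transfection or rescue is given in the sources used here. RNA was taken from whole cultures, in which fewer cells of a type and less RNA per cell cannot be told apart.

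Neurotrophins signal through Trk receptor tyrosine kinases and through the p75 receptor, a member of the tumour necrosis factor receptor superfamily that has no kinase domain. TrkB, encoded by NTRK2, is the receptor of BDNF, TrkC, encoded by NTRK3, is that of neurotrophin-3, and p75, encoded by NGFR, binds all mature neurotrophins and their precursors. Ligands of the GDNF family first bind a GFRA co-receptor that is anchored in the membrane by a lipid, and this complex then activates the receptor tyrosine kinase RET. In sympathetic neuroblasts and neuroblastoma these receptors are known for their part in survival, differentiation and proliferation.

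RET, GFRA3 and NGFR were the receptor and co-receptor genes with every probe set above the level used as a filter and with a probe set that separated the groups. For NGFR the siLSD1 mean alone lay below that level. The promoter table used held RET and GFRA3, and 6 of the 8 members in all. The windows around the transcription starts of RET and GFRA3, from 250 bases before to 50 bases after, are shown because LSD1 is known to act on histones at promoters. They come from RefSeq on the build GRCh38.p14, at chr10:43076819-43077118 on the plus strand for RET (the upstream start of 2 in the table) and at chr5:138274572-138274871 on the minus strand for GFRA3. Capitals mark the GC box GGGCGG, a site of SP-family factors, and the E-box CACCTG, which SNAI1 and other zinc-finger repressors can bind, each read on both strands. Overlapping matches were counted separately.
RET: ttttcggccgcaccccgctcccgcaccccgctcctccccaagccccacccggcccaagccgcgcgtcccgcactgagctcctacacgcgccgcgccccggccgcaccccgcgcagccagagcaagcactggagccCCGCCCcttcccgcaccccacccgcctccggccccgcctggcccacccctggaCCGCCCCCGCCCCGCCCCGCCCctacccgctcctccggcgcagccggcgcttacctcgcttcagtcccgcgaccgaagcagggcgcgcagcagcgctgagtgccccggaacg
GFRA3: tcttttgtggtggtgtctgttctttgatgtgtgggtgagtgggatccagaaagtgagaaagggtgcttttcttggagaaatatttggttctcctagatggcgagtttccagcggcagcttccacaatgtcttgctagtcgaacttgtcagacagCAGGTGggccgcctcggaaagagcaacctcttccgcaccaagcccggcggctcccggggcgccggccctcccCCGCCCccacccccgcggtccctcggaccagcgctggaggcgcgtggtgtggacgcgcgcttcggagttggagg
The RET window held 5 GC boxes and 0 matches to the E-box, with 41 CpG dinucleotides and a GC content of 78.7%. The GFRA3 window held 1 GC box and 1 E-box, with 22 CpG dinucleotides and a GC content of 61.3%. Of 35116 promoter windows of the same length in the table, 45.0% held a GC box and 20.6% the E-box, and the median was 14 CpG dinucleotides. These matches are descriptions of the letters in these windows. LSD1 binding was not measured in this series.

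All levels are log2 signals after quantile normalization, which gives each array the same distribution, and a fold change is siLSD1 relative to siControl. KDM1A, the gene of LSD1, was at 9.79 and 9.78 on the siControl arrays and at 8.40 and 8.54 on the siLSD1 arrays. The log2 fold change was -1.32, with a 95% interval from -1.70 to -0.94. Its unadjusted p of 6.4e-05 in limma ranked 1 of 24655 probe sets, and the adjusted p was 0.99. Of these probe sets, 0 were called higher and 0 lower at an adjusted p under 0.05 (0% each), and limma's unadjusted p was under 0.05 for 457 with a higher mean (1.85%) and 361 with a lower one (1.46%). With 2 arrays a side, the smallest p of an exact permutation test (two-sided) is 0.333. The median half-width of the 95% intervals was 0.72 on the log2 scale, which corresponds to 1.65-fold. The number of arrays limits the precision. Noradrenergic neuroblast markers matched the labelled line in 7 of 8 genes with a named probe set (PHOX2A, GATA3, HAND2, DBH, DDC, CHGA and CHGB), while TH was at 3.16 or less by its brighter probe set. All 7 probe sets of the Schwann and glial markers SOX10, S100B and GFAP were below the filter. So were 11 of 13 of the blood cell markers, whose other 2 were HBB probe sets. Of the fibroblast markers, by contrast, 12 of 23 probe sets were above the filter, from all 6 genes. Fibroblast markers had a summed linear signal of 1420 and 1079 on the siControl arrays and of 1575 and 1814 on the siLSD1 arrays, and their part in the results below was not tested. Array siLSD1 replicate 2 stood apart in RNA measures, with a mean log2 signal of 8.30 for ribosomal RNA control probe sets against 5.58 to 6.24 on the other arrays, and an ACTB 3′ minus 5′ difference of 1.16 against 0.54 to 0.71. Array siControl replicate 1 had the lowest mean correlation with the other arrays (0.946, against 0.957 to 0.961).

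RET, GFRA3, BDNF and NGFR, the last with a single probe set, had all their probe sets above the filter, whereas GFRA1 and GFRA2 had none. The filter was the 40th percentile of the probe-set means, a log2 signal of 3.62, and 10 of the 28 member probe sets passed it. Just inside it lay NGFR 205858_at with a mean of 3.62 and NTRK2 207152_at with 4.0, and just outside it NTRK3 217377_x_at with 3.53 and 217033_x_at with 3.22. No member was called in limma, where the smallest adjusted p among the 10 tested was 0.99. The unadjusted p was under 0.05 for 1 of the 10, a probe set of RET. The groups did not overlap in 3 of the 10, 1 higher and 2 lower, and over all tested probe sets this held for 16.1% higher and 16.1% lower. The lower ones included NGFR, which passed the filter through its siControl values. Over all 28 members 4 were higher and 7 lower without overlap, beside 16.3% and 16.3% of the 41091 probe sets. The 10 had a median log2 fold change of -0.092, beside -0.0043 over all tested probe sets.

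**Figure D1:**
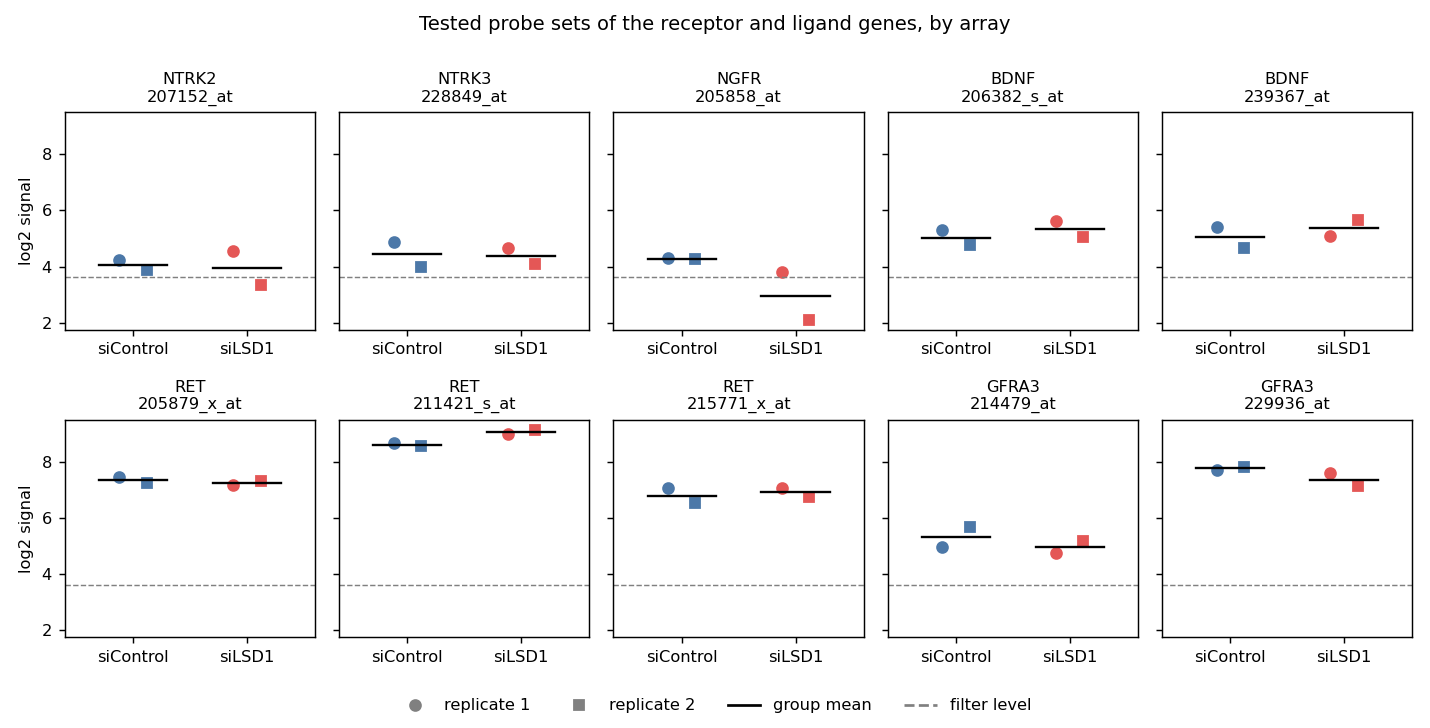
Log2 signal (vertical axis) of the 10 member probe sets above the filter on each array, circles for replicate 1 and squares for replicate 2, black bars for group means and a dashed line at the filter level of 3.62. RET 211421_s_at is higher on both siLSD1 arrays, while GFRA3 229936_at and NGFR 205858_at are lower on both.

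RET, the signalling kinase of all GDNF-family ligands, was measured by 3 probe sets that did not move together. Probe set 211421_s_at had a log2 signal of 8.65 and 8.55 on the siControl arrays and of 8.99 and 9.13 on the siLSD1 arrays. Both siLSD1 values thus lay above both siControl values. The group means were 8.60 ± 0.070 and 9.06 ± 0.099 (SD, n = 2), a log2 fold change of 0.45, or 1.37-fold, with a 95% interval from 0.04 to 0.87. The unadjusted p of 0.036 in limma ranked 536 of 24655, and the adjusted p was 0.99. A difference of at least this size in either direction was found in 20.2% of all tested probe sets. Leaving out 1 array at a time moved the value between 0.38 and 0.52. It was 0.48 under the deposited scaling and 0.65 under median centring, where the median of all tested probe sets was itself shifted to 0.16.

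The other RET probe sets had overlapping groups. Probe set 205879_x_at was at 7.47 and 7.23 on the siControl arrays and at 7.16 and 7.30 on the siLSD1 arrays. Its log2 fold change of -0.12 had an interval from -0.70 to 0.46 and turned to 0.097 under median centring. Probe set 215771_x_at was at 7.06 and 6.51 on the siControl arrays and at 7.07 and 6.75 on the siLSD1 arrays. Its log2 fold change was 0.12, with an interval from -0.58 to 0.83, and it turned to -0.15 without siControl replicate 2. Names ending in _x_at mark probe sets whose probes can match other sequences, and names ending in _s_at mark sets shared by several transcripts. Which RET transcripts each set detects is not given in the files. With the 3 probe sets averaged, RET had a log2 fold change of 0.15 and an unadjusted p of 0.46 in limma (adjusted p = 0.97).

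The 4-array profile of RET 211421_s_at was most like those of SOX5, a transcription factor of the SOX family (root mean square difference of the deviations 0.0075 over 4 arrays), SAMD8, an enzyme of sphingolipid metabolism (0.0092), and SBNO1, a homologue of a Drosophila Notch pathway gene (0.019). With 4 arrays and 24655 probe sets some profiles lie this close whatever the genes are.

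GFRA3, the co-receptor that prefers artemin, had a lower siLSD1 mean by both of its probe sets. Probe set 229936_at was at 7.71 and 7.81 on the siControl arrays and at 7.60 and 7.13 on the siLSD1 arrays, and the groups did not overlap. The means of 7.76 ± 0.068 and 7.36 ± 0.33 (SD, n = 2) differed by -0.40 on the log2 scale, with an interval from -1.0 to 0.21 (unadjusted p = 0.17 and adjusted p = 0.99 in limma). The value was -0.16 without siLSD1 replicate 2, the array with the strongest ribosomal RNA signal, and -0.17 under median centring, where the groups overlapped. Probe set 214479_at was at 4.98 and 5.68 on the siControl arrays and at 4.76 and 5.17 on the siLSD1 arrays. Here the siControl replicate 1 value lay between the siLSD1 values. The log2 fold change of -0.36 had an interval from -1.26 to 0.54 and was -0.0096 without siControl replicate 2. The difference between RET and GFRA3 in direction was not tested.

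The co-receptors of GDNF and neurturin were dim throughout. GFRA1, the main co-receptor of GDNF, had 3 probe sets, which ranged from 0.26 to 3.77 over all arrays, and the groups overlapped in each. The siControl arrays alone read 3.77 and 0.99 with probe set 230163_at, a spread larger than any difference between the GFRA1 group means. GFRA2, the co-receptor that prefers neurturin, had 2 probe sets that disagreed. Probe set 205721_at was at 0.41 and 0.23 on the siControl arrays and at 3.36 and 3.03 on the siLSD1 arrays, while 205722_s_at was at 1.47 and 0.20 and at 0.71 and 0.92. The first gave group means of 0.32 ± 0.13 and 3.19 ± 0.23 (SD, n = 2) and a log2 difference of 2.87, and the second a difference of -0.022.

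The GFRA2 205721_at difference was the largest among the members, and every value of it lay below the filter level. In limma without a filter its unadjusted p was 0.0090 and its adjusted p 0.99. Of 16436 probe sets below the filter, 1.70% differed by at least as much in either direction, and 0.767% did so with groups that did not overlap and in the same direction. The median SD within a group was 0.89 for these dim probe sets, against 0.26 for the tested ones. Dim here means only a mean below the filter level, and no background level or detection call was used. Differences in dim probe sets were not taken as the fold change of a transcript. Leaving out 1 array at a time moved the difference between 2.71 and 3.04.

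**Figure D2:**
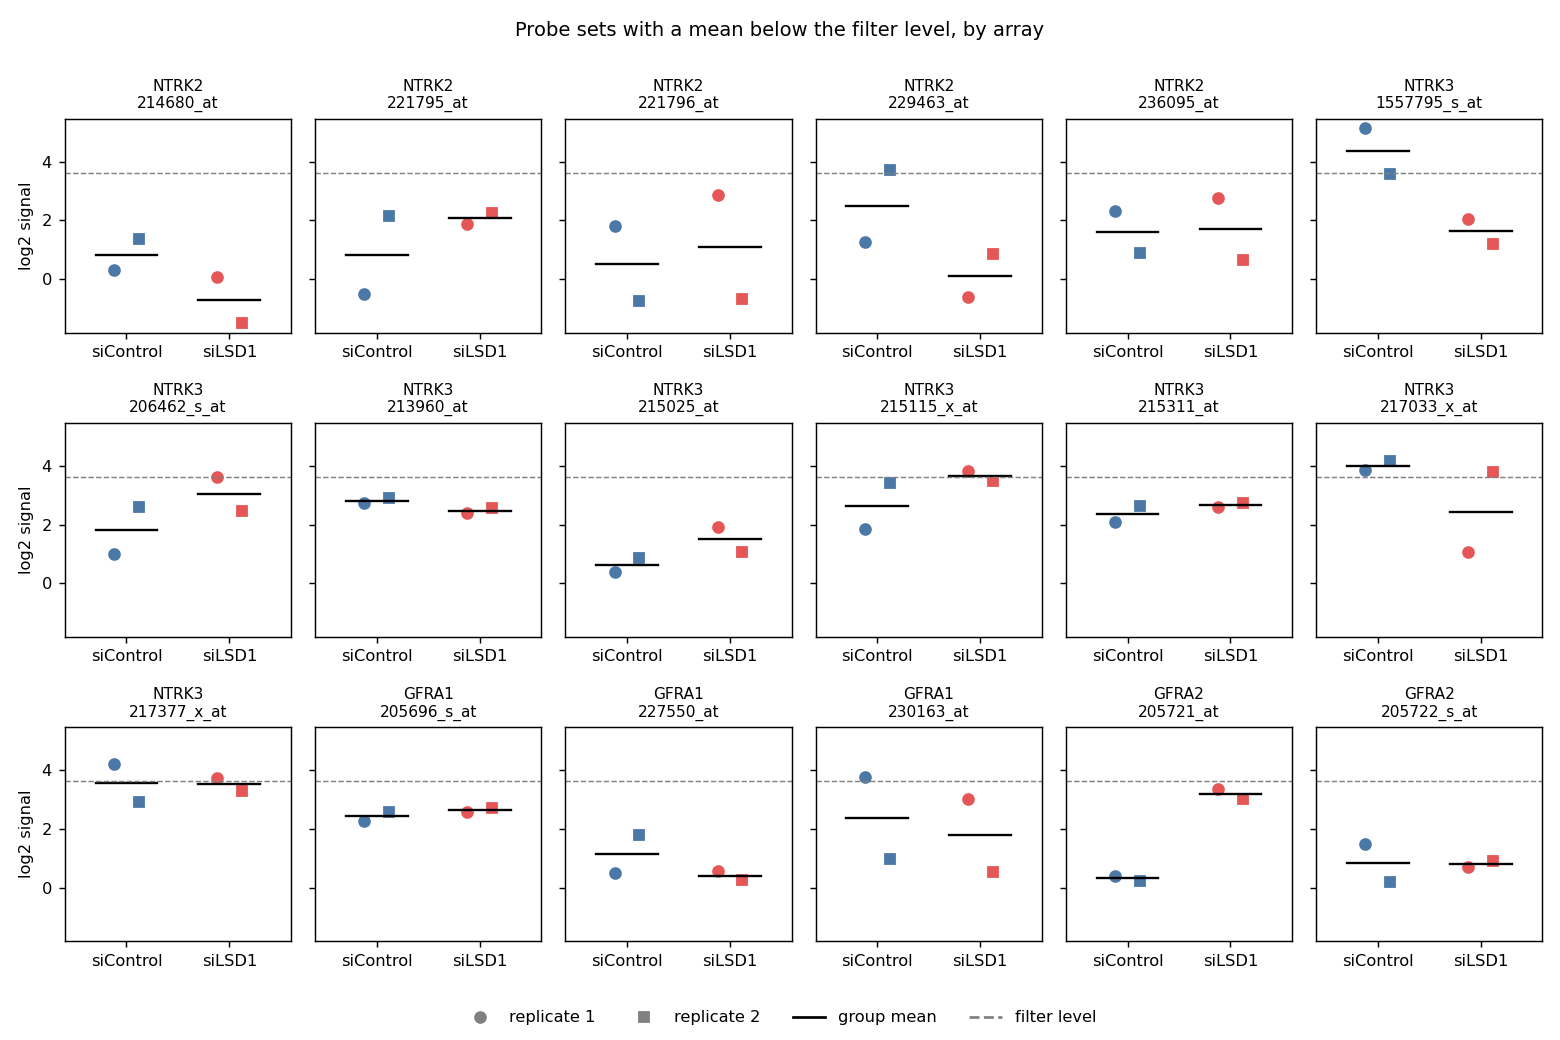
Log2 signal (vertical axis) of the 18 member probe sets with a mean below the filter level (dashed line, 3.62) on each array, circles for replicate 1, squares for replicate 2 and bars for group means. The siLSD1 values of GFRA2 205721_at, 3.36 and 3.03, stand above its siControl values, and most other panels show replicates as far apart as the groups.

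NTRK2 and NTRK3, the receptors of BDNF and neurotrophin-3, each had 1 probe set above the filter, and neither separated the groups. NTRK2 207152_at was at 4.24 and 3.88 on the siControl arrays and at 4.55 and 3.34 on the siLSD1 arrays. The siLSD1 arrays thus held its highest and its lowest value. The log2 fold change of -0.12 had an interval from -1.38 to 1.14 and was 0.49 without siLSD1 replicate 2. NTRK3 228849_at was at 4.89 and 3.99 on the siControl arrays and at 4.66 and 4.09 on the siLSD1 arrays. In both groups replicate 1 was the higher, and the log2 fold change was -0.068, with an interval from -1.18 to 1.04.

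The dim Trk probe sets differed in both directions. Of the 5 of NTRK2, 2 had lower siLSD1 values on both arrays, 229463_at (3.72 and 1.28 against 0.86 and -0.61) and 214680_at (1.37 and 0.31 against 0.078 and -1.48). The other 3 overlapped. Of the 8 of NTRK3, 3 were lower and 2 higher on both siLSD1 arrays. The largest of these differences was in 1557795_s_at, at 5.12 and 3.56 on the siControl arrays and at 2.06 and 1.21 on the siLSD1 arrays. Its log2 difference was -2.70, which limma without a filter gave an unadjusted p of 0.011 and an adjusted p of 0.99. This was 1 of 9 probe sets of NTRK3, and it was dim on 3 of 4 arrays. Of the dim probe sets 206462_s_at and 215115_x_at of the same gene had log2 differences of 1.24 and 1.01. Over the 18 dim members, 3 were higher and 5 lower with groups that did not overlap, where 16.5% and 16.6% of all 16436 probe sets below the filter were, and 9 had a higher and 9 a lower siLSD1 mean. Limma without a filter gave 3 of the 28 members an unadjusted p under 0.05, beside 2.00% higher and 1.99% lower over all 41091 probe sets, and called 0 of them at an adjusted p under 0.05.

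NGFR, the p75 receptor, had 1 probe set at the edge of the filter. The mean over all arrays passed the filter level only through the siControl values, and the siLSD1 mean of 2.97 lay below it. NGFR was tested on that footing. The probe set was at 4.31 and 4.26 on the siControl arrays and at 3.82 and 2.11 on the siLSD1 arrays. Both siLSD1 values were lower, and they differed more from each other than the nearer of them did from the controls. The means of 4.28 ± 0.032 and 2.97 ± 1.21 (SD, n = 2) gave a log2 fold change of -1.32, with an interval from -2.84 to 0.20 (unadjusted p = 0.080 and adjusted p = 0.99 in limma). A difference of this size in either direction was found in 1.31% of all tested probe sets, whose median SD within a group was 0.26. Below the filter, 26.9% of probe sets differed by at least as much as NTRK3 206462_s_at (1.24), in either direction. For NTRK2 214680_at (-1.54) that share was 18%. With NGFR at the edge of the filter, the 1.31% does not show that its difference was unusual for its level. The NGFR value was -0.46 without siLSD1 replicate 2, the array with the strongest ribosomal RNA signal, and -2.17 without siLSD1 replicate 1. Under the deposited scaling and under median centring the probe set was below the filter and was not tested.

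BDNF, the ligand of TrkB, had a higher siLSD1 mean by both probe sets, and in both the groups overlapped. Probe set 206382_s_at was at 5.28 and 4.76 on the siControl arrays and at 5.62 and 5.05 on the siLSD1 arrays, a log2 fold change of 0.32 with an interval from -0.57 to 1.20. Probe set 239367_at was at 5.41 and 4.66 and at 5.09 and 5.65, a log2 fold change of 0.34 with an interval from -0.60 to 1.27. The siLSD1 array with the higher value was replicate 1 for the first and replicate 2 for the second. The lowest value of both was on siControl replicate 2, and without that array the log2 fold changes were 0.053 and -0.036.

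**Figure D3:**
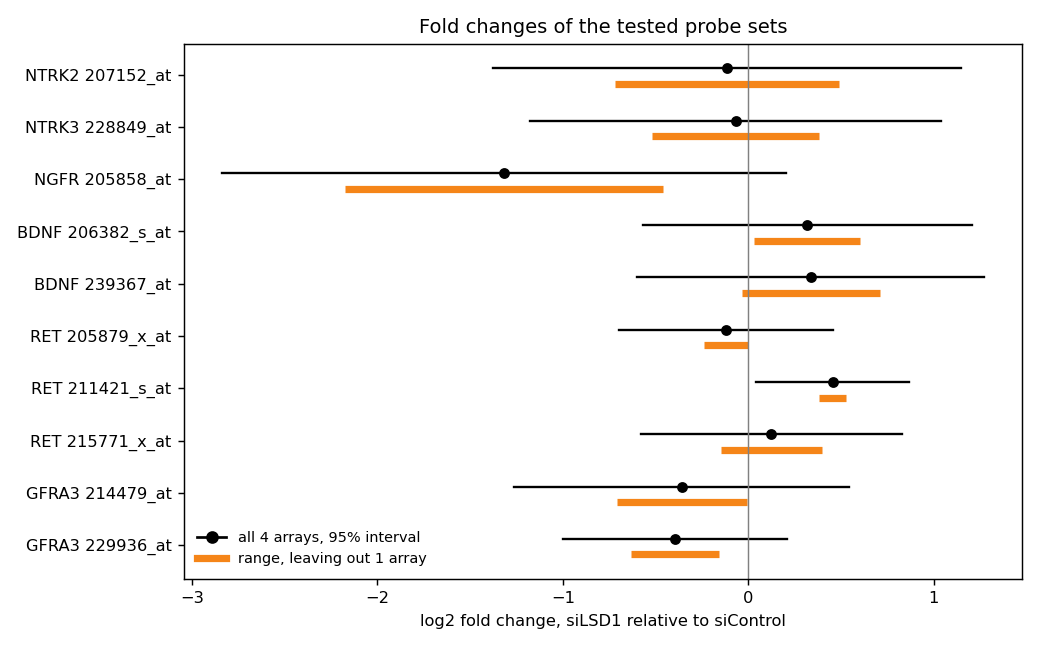
Log2 fold change of siLSD1 relative to siControl (horizontal axis) for the 10 tested member probe sets, with limma's 95% interval as a black line and the range of values when 1 array is left out as an orange bar. The interval leaves out 0 only for RET 211421_s_at, at 0.04 to 0.87.

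Over all probe sets with 1 symbol, the spread of fold changes widened towards low signals, as the plot of fold change against level shows. The signal differences of the dim members ranged from -2.70 to 2.87 on the log2 scale, and those of the tested members from -1.32 to 0.45. The median SD within a group was 0.40 for the 10 tested members and 0.26 over all tested probe sets, and it was 0.84 for the 18 dim members and 0.89 over all dim probe sets.

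**Figure D4:**
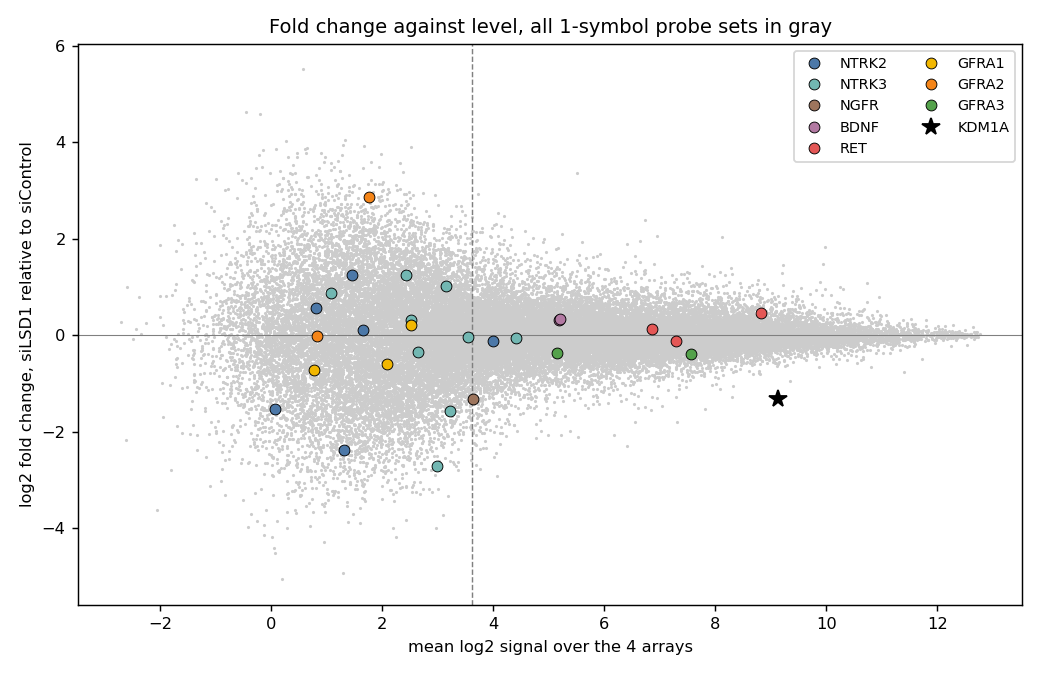
Log2 fold change of siLSD1 relative to siControl (vertical axis) against the mean log2 signal over the 4 arrays (horizontal axis), with all 41091 probe sets with 1 symbol in gray, the members in colour, KDM1A as a star and the filter level of 3.62 as a dashed line. The members lie within the gray cloud, and KDM1A, at -1.32, lies below it.

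Genes that act with these receptors were then described by lists of ligands, further receptors, adaptors, p75 partners, feedback inhibitors and targets, and transcription factors. None of their probe sets passed the threshold, with limma adjusted p-values of 0.99 for each gene named. Some listed genes were not analysed here. For 19 of the 23 genes named from these lists, the log2 fold change was scaled by a factor above 1.5, or changed sign, with 1 array left out. This is a ratio of log2 fold changes and not a 1.5-fold change in level. GATA3, which went from 0.15 to 0.083 without siControl replicate 2, counts as changed. That array was siControl replicate 1 for 9 genes, siControl replicate 2 for 7, siLSD1 replicate 1 for 10 and siLSD1 replicate 2 for 12, and a gene could count under several.

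The GDNF-family ligands with a named probe set were artemin (ARTN), neurturin (NRTN) and persephin (PSPN). All 4 of their tested probe sets had a higher siLSD1 mean, the groups overlapped in each, and the median log2 fold change of 0.25 was 0.05 under the deposited scaling. That median was 0.12 without the filter, which 2 further probe sets had not passed. Siting 3 of the 4 lowest values, siControl replicate 1 weighed on the median, which was 0.07 without it. NRTN turned to -0.22 without that array, and PSPN 1564240_at to -0.21 without siLSD1 replicate 1. ARTN, the ligand of GFRA3, was at 3.08 and 4.10 on the siControl arrays and at 3.98 and 4.62 on the siLSD1 arrays. Its siControl mean of 3.59 lay below the filter level and its siLSD1 mean of 4.30 above it, so ARTN passed the filter through the siLSD1 values.

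Among further receptors and co-receptors, 12 of 13 tested probe sets of 7 genes had a higher siLSD1 mean, with a median log2 fold change of 0.26. Over all 24655 tested probe sets, 12170 had a higher siLSD1 mean. The groups did not overlap in 6 of the 13 (46.2%), all higher, beside 16.1% of all tested probe sets, and 7 of the 13 had their lowest value on siControl replicate 1. The fibroblast markers moved alongside, with 10 of 12 tested probe sets higher, 6 higher and 0 lower without overlap and a median log2 fold change of 0.37, and their part in the receptor values was not tested. SORL1 is a sorting receptor of the sortilin family that carries neurotrophic factors and their receptors through the cell. This 1 gene supplied 3 of the 6 probe sets without overlap, and its siLSD1 values lay above its siControl values in each. Probe set 203509_at was at 6.44 and 6.54 on the siControl arrays and at 7.0 and 7.20 on the siLSD1 arrays (log2 fold change 0.61, with an interval from 0.0027 to 1.21 and an unadjusted p of 0.049 in limma). Probe set 212560_at was at 6.64 and 6.89 and at 7.07 and 7.28, and 230707_at at 3.55 and 3.81 and at 4.13 and 4.27. Leaving out 1 array at a time kept the 3 log2 fold changes between 0.28 and 0.71. Of 3059 genes with at least 3 tested probe sets, 9 (0.294%) had all of them higher without overlap. SORL1 was named for the smallest unadjusted p of limma in this list, so that share, from the same values, is not a test of it. SDC3, a heparan sulfate proteoglycan that binds GDNF, had a log2 fold change of 0.94, with a siControl replicate 1 value of 5.14 far below the 6.47 of the other control. The sortilin relative SORCS1 was at 0.26 and the Nogo receptor RTN4R, a partner of p75, at 0.33.

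The adaptors that couple Trk receptors and RET to Ras, phosphoinositide and phospholipase pathways were divided evenly. Of 61 tested probe sets of 25 genes, 30 had a higher and 31 a lower siLSD1 mean, with a median log2 fold change of -0.0037, and 8 (13.1%) were higher and 9 (14.8%) lower without overlap, beside 16.1% each of all tested probe sets. DOK4, a docking protein that binds RET, had a log2 fold change of 0.91 by 1 of 3 probe sets, while the lowest of the 3 was at -0.10. PTPN11, the phosphatase SHP2, was at 5.10 and 4.84 on the siControl arrays and at 4.38 and 2.75 on the siLSD1 arrays by its set with the smallest p. The siLSD1 mean of that set, 3.56, lay below the filter level, while its siControl mean did not. Its log2 fold change of -1.41 was -0.59 without siLSD1 replicate 2, and 4 of the gene's 5 tested sets were lower. The ubiquitin ligase CBL (0.64) and the Ras exchange factor SOS1 (0.58) had higher means by the set with the smallest p, but CBL was lower in 2 of 4 tested sets and SOS1 in 1 of 4.

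The intracellular partners of p75 had 6 higher and 8 lower of 14 tested probe sets, and their median log2 fold change of -0.070 became 0.11 when arrays were centred on their medians. BEX3, a small protein that binds the p75 death domain, was at 0.19, the ubiquitin ligase TRAF6 at -0.47, the kinase IRAK1 at -0.45 and ARHGDIA at -0.43, which was -0.035 without siLSD1 replicate 2. A further set of IRAK1 (0.20) and 1 of the 4 of ARHGDIA (0.098) were higher.

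Feedback inhibitors and early targets of Ras signalling had 14 higher and 11 lower of 25 tested probe sets, with a median of 0.04. SPRED1, an inhibitor of Ras signalling, was at 1.06 on the log2 scale, with siControl values of 5.12 and 6.64 that lay far apart. DUSP6, a phosphatase of ERK, was at -0.49 and lower in 2 of its 3 sets. VGF, a neurotrophin-induced neuropeptide precursor, was at 0.43 and the ETS factor ETV4 at 0.49, with its other set at -0.14.

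Transcription factors known to act on RET or Trk expression had 11 higher and 10 lower of 21 tested probe sets, with a median of 0.03 that was -0.0029 under the deposited scaling. RARA, a retinoic acid receptor, was at -2.76 by 203750_s_at, where the siLSD1 values were 0.79 and 3.96, and its 4 tested sets ran up to 0.71. The siLSD1 mean of 203750_s_at, 2.37, lay below the filter level, while its siControl mean did not. CREB1, the factor of cyclic AMP responses, was at 0.94 by 225565_at and lower in 4 of its 7 sets. GATA3, a noradrenergic identity factor, was at 0.15 and HOXB5 at -0.79, and in both genes another set had the opposite sign. The HOXB5 value was -0.035 without siControl replicate 1.

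**Figure D5:**
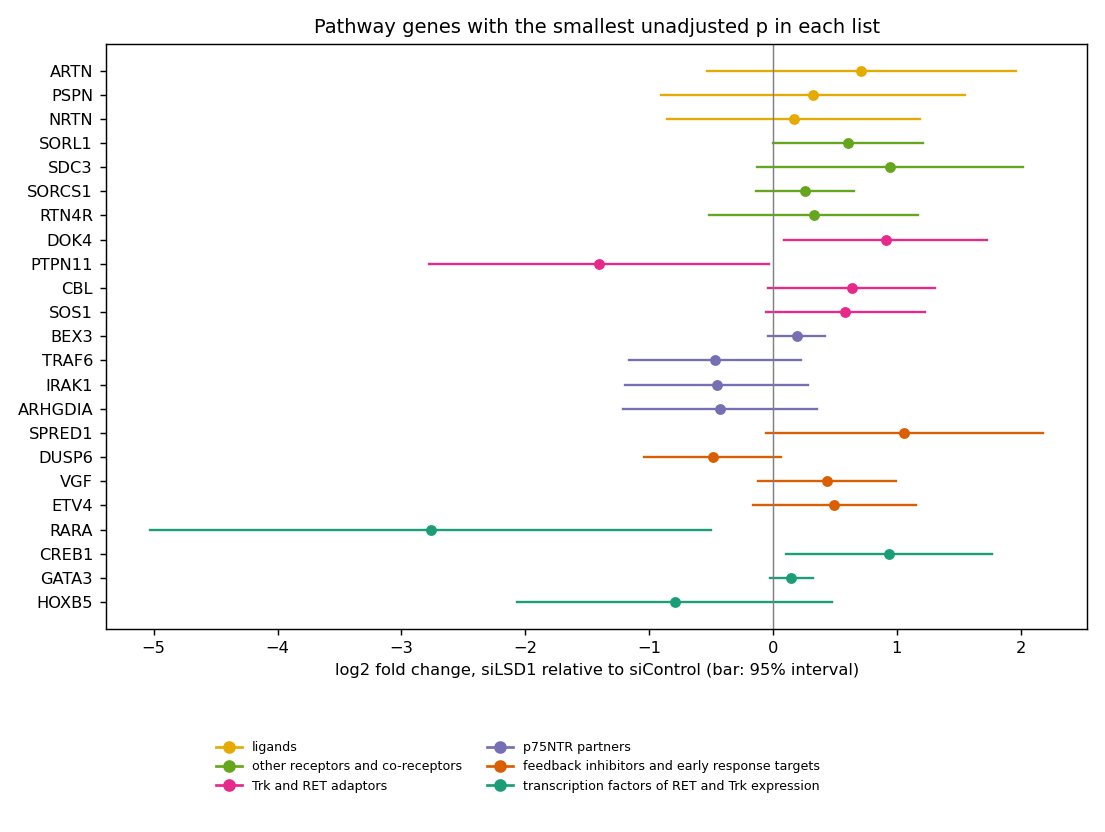
Log2 fold change of siLSD1 relative to siControl (horizontal axis) with limma's 95% interval for up to 4 genes of each pathway list, those with the smallest unadjusted p, coloured by list. The intervals leave out 0 for SORL1, DOK4, PTPN11, RARA and CREB1, and the adjusted p was 0.99 for each.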

How the data were processed

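RNA levels were measured on 4 Affymetrix arrays, 2 per siRNA. Per the labels' protocols, total RNA was column-purified and biotin-labelled. The deposited values were log2 signals, 1 per probe set and array. The log base was found from the values, whose base-2 antilogs had a trimmed mean of 100.0 on each array. The authors' summary method was not given in the sources used here. Groups came from the sample titles, 1 of which writes the target as LSD.

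Arrays were quantile normalized because their medians differed (4.01 to 4.27). Of 54675 probe sets, 41091 had 1 symbol in the platform annotation of 2016, 1801 several, 11721 none, and 62 were controls. Each 1-symbol probe set was kept as its own feature, and those with a mean under the 40th percentile were not tested. Groups were compared with limma 3.58.1 in R 4.3.3 (lmFit, eBayes with trend, Benjamini-Hochberg over 24655 probe sets, two-sided, threshold 0.05), tested on simulated data with 200 changed probe sets, where it recovered 7.61% of those set at 2-fold, 44.2% at 4-fold and 72.7% at 8-fold. The simulated noise was independent between arrays and held no array that stood apart, unlike siControl replicate 1 and siLSD1 replicate 2 here. Recovery on the real arrays can therefore differ. The members and lists were chosen with earlier results of these data known. Named genes were KDM1A, all members, up to 4 genes per list with the smallest p, and the 3 genes with the profile most like the member with the smallest p.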

Additional observations from a re-analysis of the deposited data

How the results depend on the processing

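In limma 0 tested members were called under the deposited scaling, median centring, no filter or a 60th percentile filter. The same held with 1 probe set per gene, the mean of a gene's probe sets, no trend or the replicate block. KDM1A, the knockdown target, was not called in these settings either, so the absence of calls does not measure how steady the members' values are. Over all tested probe sets the counts of 0 higher and 0 lower became 0 to 5 higher and 0 to 1 lower when 1 array was left out, with 5 higher without siControl replicate 2 and 1 lower without siLSD1 replicate 1. KDM1A stayed between -1.39 and -1.25 in those fits. Median centring turned RET 205879_x_at to 0.097. The tested members with separate groups went from 1 higher and 2 lower to 3 higher and 0 lower. Of the lower ones, GFRA3 229936_at came to overlap. NGFR, at -1.34 under this scaling, fell below the filter and was not counted. Leaving out 1 array turned the sign of NTRK2 207152_at (-0.72 to 0.49, and 0.066 without siControl replicate 1), NTRK3 228849_at (-0.52 to 0.38, and 0.22 without siLSD1 replicate 2), BDNF 239367_at (-0.036 to 0.71) and RET 215771_x_at (-0.15 to 0.40, and -0.034 without siLSD1 replicate 1). In these fits the spread of the lone array is assumed to be that of the other group. Same-numbered arrays did not deviate together (correlation of their deviations -0.067), so the numbers were not taken as pairs. With the replicate block limma called 0 probe sets, and RET 211421_s_at kept 0.45 with an unadjusted p of 0.068 in place of 0.036. The cause of the turns under scaling was not tested.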
